A study of Homo sapiens with 24 samples.

Results

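In BEAS-2B, an established cell line from human bronchial epithelium, mRNAs recovered with the RNA-binding protein HuR were set against those recovered with a control antibody after 18 h without cytokines. The 6 arrays described are 3 of the HuR immunoprecipitate (HuR IP) and 3 of the IgG1 isotype control immunoprecipitate (IgG1 IP), chosen from the 24 arrays of the study by their labels. Cells of both groups were labelled untreated (PBS), and the labels of these arrays name no vector, siRNA or cytokine. The other 18 arrays are the same antibody pair in untreated cells at 3 h and in cells stimulated for 3 h or 18 h with TNFα and IFNγ (50 ng/ml of either). Each group holds 1 array of sets 1, 3 and 4, as the replicates are numbered. The design text names 3 biological replicates. The sources used here do not say whether both precipitates of a set came from 1 lysate. All values come from 1 cell line.

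HuR, the product of ELAVL1, is a widely expressed protein of the ELAV family that shuttles between nucleus and cytoplasm. It binds U-rich and AU-rich elements, mostly in 3′ untranslated regions, and is known for slowing the decay of short-lived mRNAs that encode cytokines, chemokines, transcription factors and cell-cycle regulators. In airway epithelium such mRNAs carry much of the inflammatory response. An IgG1 precipitate shows which RNA sticks to antibody and beads without HuR, so a ligand is looked for among transcripts with more signal in the HuR IP than in this control. ELAVL1 itself has no value on this array.

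Each array reports 355 transcripts of autoimmunity and inflammation as 33P signal on a membrane. The median intensity was 18857, 4472 and 7052 units on the HuR arrays of sets 1, 3 and 4, against 11831, 5655 and 15945 units on the IgG1 arrays of the same sets. The log2 median intensity of the HuR arrays minus that of the IgG1 arrays averaged -0.28 (exact two-sided permutation test over the arrays, p = 0.8, where 3 arrays against 3 cannot go below 0.1). All levels below are log2 intensity minus the median of the same array, and a ratio is the level on a HuR array minus the level on the IgG1 array of its set. Such a level places a transcript against the middle transcript of its own array, so a difference shared by most transcripts of a precipitate cannot be seen. Epithelial markers and housekeeping genes have no measured member, so the cell type could not be checked by them. Of 23 leukocyte markers, which an epithelial line should lack, 8 are measured. Their mean levels lay between -0.42 and -0.17 in the HuR IP and between -0.53 and 0.36 in the IgG1 IP, and the mean was below 0 for all 8 in the HuR IP and for 6 in the IgG1 IP. The exceptions were CD86, with an IgG1 mean of 0.36, and CD3G, with an IgG1 mean of 0.33 and levels of 0.63 on the HuR array and 1.5 on the IgG1 array of set 1.

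No transcript passed the test of HuR IP against IgG1 IP. Of the 355 transcripts, 0 (0%) had an adjusted p under 0.05 in either direction (limma, Benjamini-Hochberg over all 355, lowest adjusted p = 0.999), and 0 had an unadjusted p under 0.05. The other fits of these values called 0 transcripts, with 0 to 9 at an unadjusted p under 0.05, except a fit of only the 6 arrays with the set as a block, which called 1, JUND, and had 10 at an unadjusted p under 0.05. The standard error (SE) of a mean ratio ran from 0.15 to 1.77 on the log2 scale, with 3 arrays per group. Unless stated otherwise, an SE or interval comes from the fit of all arrays of the study, which does not pair arrays by set. Such an SE pools the scatter within every group, stimulated cells included, and is not the spread of the 3 set ratios. The wide intervals leave many ratios undecided in size and direction. The 6 arrays were therefore described transcript by transcript. For 10 transcripts (2.82% of those tested) all 3 HuR arrays lay above all 3 IgG1 arrays, and for 2 (0.563%) all 3 lay below. Without any difference, 3 arrays against 3 separate completely in 1 direction or the other with a probability of 0.1 if all 6 are interchangeable. The HuR and IgG1 arrays of a set deviated together, as described below, so this value need not hold here. It also covers both directions, whereas each share covers 1. Whether the counts exceed those expected without any difference was not tested, and they are not taken as evidence of enrichment. The 10 were JUND, ATF2, CCL2, MAX, SP3, TGIF1, RUNX1, BMPR2, SMAD5 and LTB4R, and the 2 were CD86 and IL17A. Which transcripts separated depended on the scaling. With quantile normalization the count above IgG1 was again 10, but only 5 were the same (ATF2, BMPR2, MAX, RUNX1 and TGIF1): CCL2, JUND, LTB4R, SMAD5 and SP3 overlapped, and CNR1, IL5, IL6R, JAK2 and PPP3R1 took their place. With centring on the 75th percentile 7 separated, without CCL2, LTB4R and SMAD5.

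**Figure D1:**
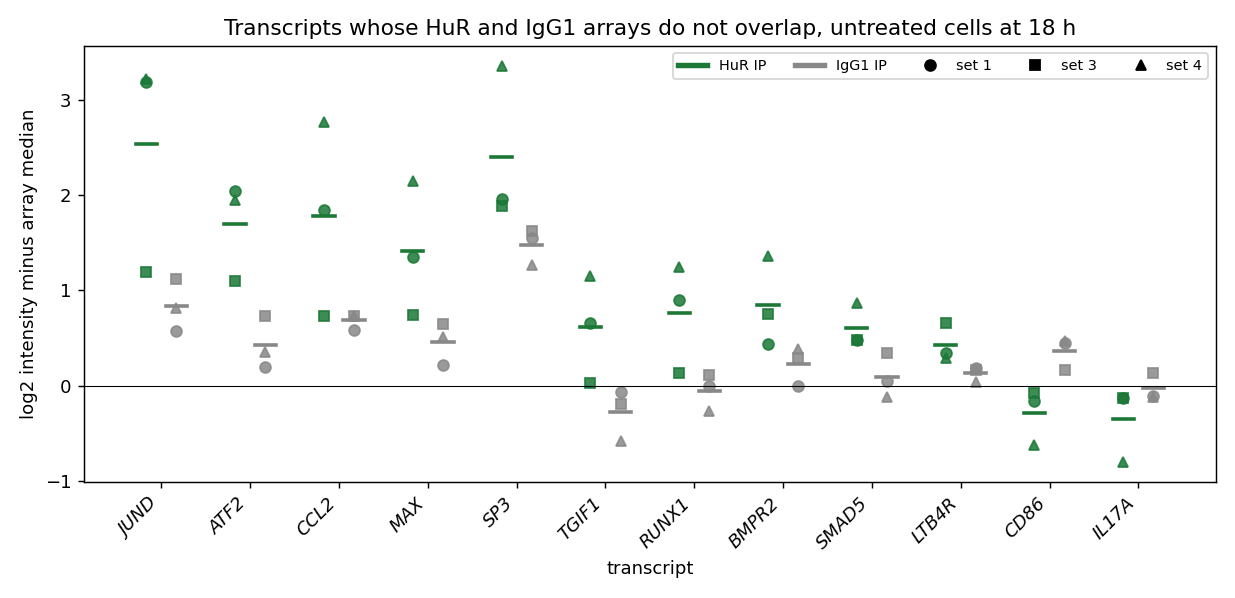
Levels of the 12 transcripts whose 3 HuR arrays and 3 IgG1 arrays did not overlap, as log2 intensity minus the array median. Symbols are arrays by set, bars are group means, with the HuR IP in green on the left and the IgG1 IP in grey on the right of each pair; the HuR symbol of set 3 lies close to its IgG1 symbols for JUND, CCL2 and MAX.

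JUND, which encodes a JUN family subunit of the transcription factor AP-1, had the highest mean ratio of all 355 transcripts. Its level was 3.19, 1.20 and 3.22 on the HuR arrays of sets 1, 3 and 4, against 0.58, 1.12 and 0.82 on the IgG1 arrays. Sets 1 and 4 gave large differences and set 3 almost none, with ratios of 2.61, 0.07 and 2.40 (SD 1.41). Their mean was 1.69 ± 0.95 (SE of the fit over all arrays, n = 3 arrays per group, 3.24-fold, 95% interval -0.30 to 3.69). In limma this mean did not pass (adjusted p = 0.999). It passed when only the 6 arrays were fitted with the set as a block (adjusted p = 0.001005), a fit in which every transcript was given the same SE of 0.36. Over the other settings tried the adjusted p of JUND lay between 0.770 and 1.000.

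ATF2, a CREB family factor that pairs with JUN proteins, had the lowest unadjusted p of the transcripts with a positive ratio. Its level was 2.04, 1.09 and 1.95 on the HuR arrays, against 0.19, 0.73 and 0.36 on the IgG1 arrays. The groups were clear of each other in every set, with ratios of 1.85, 0.36 and 1.59 and a mean of 1.27 ± 0.64 (SE, n = 3 arrays per group, 2.41-fold, limma unadjusted p = 0.0611, adjusted p = 0.999). JUND and ATF2 belong to a list of 10 measured AP-1, CREB and ATF factors. The other members stood closer to 0, among them JUN with a mean ratio of 0.41, CREB1 with 0.29, FOSL1 with 0.02, FOS with -0.02 and MAF with -0.32.

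MAX, the obligate partner of MYC, had levels of 1.35, 0.74 and 2.15 on the HuR arrays and of 0.21, 0.65 and 0.52 on the IgG1 arrays. Its ratios of 1.14, 0.09 and 1.63 again put set 3 near 0. MYC, a transcript often described as bound by HuR, was high on all arrays and gave ratios of opposite sign, -1.37, 0.06 and 1.35, with a mean of 0.01. SP3, a zinc finger factor of the SP family, had levels of 1.96, 1.88 and 3.35 on the HuR arrays and of 1.55, 1.62 and 1.27 on the IgG1 arrays. RUNX1, a runt-domain factor of blood cell development, had levels of 0.90, 0.14 and 1.25 on the HuR arrays and of -0.0027, 0.11 and -0.26 on the IgG1 arrays. The mean ratios were 0.95 ± 0.58 for MAX, 0.92 ± 0.62 for SP3 and 0.81 ± 0.57 for RUNX1 (SE, n = 3 arrays per group). Most of the SP3 mean came from set 4, whose ratio was 2.08 beside 0.41 in set 1 and 0.26 in set 3.

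Of the 10 transcripts, 3 belong to signalling by TGF-β and bone morphogenetic proteins, a list with 24 measured members. Over all 355 transcripts 12 did not overlap in either direction. Whether 3 of 24 exceeds that share was not tested. TGIF1, which encodes a corepressor of SMAD proteins, had levels of 0.66, 0.03 and 1.16 on the HuR arrays, against -0.06, -0.19 and -0.57 on the IgG1 arrays. Its ratios were 0.73, 0.23 and 1.73, with a mean of 0.89 ± 0.69 (SE, n = 3 arrays per group). BMPR2, the type II receptor for bone morphogenetic proteins, was the transcript whose smallest set ratio was largest. Its levels were 0.44, 0.76 and 1.36 on the HuR arrays and -0.0029, 0.29 and 0.39 on the IgG1 arrays, and its ratios were 0.44, 0.47 and 0.97, with a mean of 0.63 ± 0.49. SMAD5, which carries the signal of that receptor, had ratios of 0.43, 0.14 and 0.99 and a mean of 0.52 ± 0.29 (limma unadjusted p = 0.0869). The inhibitory SMAD7 had the lowest ratio of the 24 measured members of this pathway, with a mean of -0.25 ± 0.34. Of these 24, 15 had a mean ratio above 0 and 0 passed, and their median was 0.10 beside -0.01 over all 355 transcripts. With quantile normalization the median was 0.02. In sets 1, 3 and 4 the median of the list was -0.06, 0.14 and 0.33. With the trend in table order removed, as described below, it was 0.03 over the sets, with 13 of 24 above 0.

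LTB4R, the receptor for leukotriene B4, was the last of the 10, with ratios of 0.16, 0.48 and 0.25 and a mean of 0.30 ± 0.47. It was the only 1 of the 10 whose ratio was largest in set 3. C3, a complement component, and SOCS4 also had 3 ratios above 0 of similar size, 0.27, 0.26 and 0.57 for C3 and 0.40, 0.21 and 0.21 for SOCS4. Their groups overlapped. The SOCS4 probe was named by its deposited accession, and the symbol in the deposited table is that of SOCS7.

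CCL2, a chemokine that draws monocytes, had the highest mean ratio of the chemokines. Its level was 1.84, 0.73 and 2.76 on the HuR arrays, against 0.59, 0.73 and 0.73 on the IgG1 arrays. The IgG1 arrays were close together, whereas the HuR array of set 3 was indistinguishable from them, and the ratios were 1.26, 0.00137 and 2.03. The mean was 1.10 ± 0.90 (SE, n = 3 arrays per group, 2.14-fold, 95% interval -0.78 to 2.97, limma adjusted p = 0.999). CCL8, a related monocyte chemoattractant, had ratios of 0.42, -0.09 and 1.14, and CCL5, a chemokine for T cells, had 0.09, -0.24 and -0.82. Of 20 measured CC chemokines 5 had a mean ratio above 0, and 0 passed. Their median was -0.12, or 0.03 with quantile normalization.

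Neutrophil chemokines and cytokines showed no shared direction across sets. CXCL8, which encodes interleukin-8, had ratios of 0.45, -0.24 and 0.17, and CXCL1 had 0.38, -0.18 and 0.87. CXCL2 went opposite ways in the outer sets, with -1.06 in set 1, -0.19 in set 3 and 1.76 in set 4. IL6, a cytokine of the acute phase response, stood near the array median on all 6 arrays, with levels of -0.24, 0.05 and 0.09 in the HuR IP and -0.20, -0.16 and -0.05 in the IgG1 IP. TNF had ratios of -1.30, 0.08 and 0.66, and CXCL10, induced by interferon, had 0.40, -0.22 and -0.60. ICAM1, an adhesion molecule that binds leukocyte integrins, had 0.02, -0.03 and 1.02, and the transcription factor IRF1 had -0.31, -0.07 and -0.13. For these 8 transcripts the mean ratio lay between -0.19 and 0.35, the SE between 0.38 and 1.08, and the groups overlapped.

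**Figure D2:**
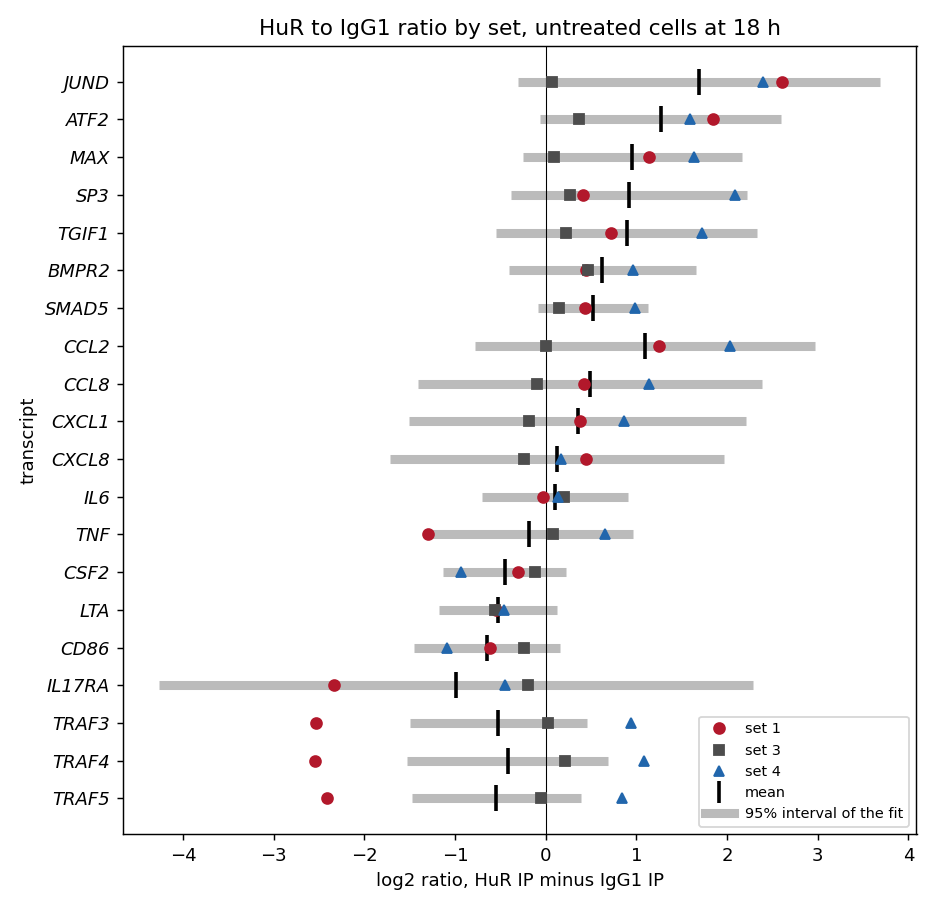
HuR to IgG1 ratio of 20 transcripts in each set (symbols), with the mean (black tick) and the 95% interval of the fit over all 24 arrays (grey bar), on a log2 scale. Every interval shown includes 0; set 3 lies nearer to 0 than sets 1 and 4 for JUND, ATF2, MAX and CCL2, and TRAF3, TRAF4 and TRAF5 lie far below 0 in set 1 and above or near 0 in sets 3 and 4.

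LTA, which encodes lymphotoxin-α, a TNF family ligand of lymphocytes, led the transcripts on the low side by the size of its smallest set ratio. Its ratios were -0.55, -0.56 and -0.46, with a mean of -0.52 ± 0.31 (SE, n = 3 arrays per group, limma unadjusted p = 0.110). The SD of these ratios over the sets was 0.06, and the SE of the unpaired fit is not taken from it. The levels of LTA nevertheless overlapped between the groups, at -0.61, -0.38 and 0.05 on the HuR arrays and -0.06, 0.18 and 0.51 on the IgG1 arrays. LTA was thus near the floor on the HuR arrays of sets 1 and 3, whose dimmest probes stood at -0.73 and -0.49. CD86, a costimulatory ligand of antigen-presenting cells, did not overlap, with levels of -0.16, -0.07 and -0.62 on the HuR arrays and 0.45, 0.17 and 0.47 on the IgG1 arrays. Its mean ratio was -0.65 ± 0.38. IL17A, a cytokine of T helper cells, had ratios of -0.03, -0.26 and -0.68, and the non-overlap rested on gaps far smaller than the differences within each group. The mean HuR levels of LTA and IL17A, -0.31 and -0.35, lay within the range given above for leukocyte markers in the HuR IP.

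Among the transcripts with 3 ratios below 0 were also CD3G, a subunit of the T cell receptor complex, with -0.87, -0.28 and -0.49, and GATA4, a cardiac and gut transcription factor, with -0.22, -0.27 and -0.64. MAF, LEP and the growth factor CSF2 had mean ratios of -0.32, -0.22 and -0.45. The mean HuR levels of GATA4, MAF and CSF2, -0.31, -0.35 and -0.25, also lay within the range of the leukocyte markers in that precipitate. The IL17RA receptor gave -2.33, -0.20 and -0.45, and its level on the IgG1 array of set 1 was 4.02, against 0.13 and 0.29 on the IgG1 arrays of sets 3 and 4. CSF1, a growth factor for macrophages, had the same shape, with levels of 3.04, 0.08 and -0.26 on the HuR arrays and 3.96, 0.22 and 0.40 on the IgG1 arrays. For both, set 1 stood far above the other sets in either precipitate. Of the 8 leukocyte markers, 2 had a mean ratio above 0, and their median was -0.09, or 0.03 with quantile normalization.

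Over all transcripts, 27 (7.61%) had 3 set ratios above 0 and 23 (6.48%) had 3 below 0. Whether these shares differ from those of signs that fall independently in each set was not tested. Only 6 had every ratio above 0.2 and 4 every ratio below -0.2. The 6 were BMPR2, ATF2, SP3, C3, TGIF1 and SOCS4, and the 4 were LTA, CD3G, CD86 and GATA4. The 27 also held the kinases MAPK9 and MAPK14, the IκB kinase subunit CHUK, and GATA3 and NFAT5. The 23 also held the colony-stimulating factors CSF1, CSF2 and CSF3 and the receptors CCR1 and CCR7. Of these names GATA3, NFAT5, MAPK9, MAPK14, CSF3 and CCR7 were picked after their values were seen.

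Gene groups were described by their medians, with 0 members passing in any of them. Transcripts described as HuR ligands, or as carrying AU-rich elements, had a median ratio of -0.02 over 25 measured members, 10 of them above 0, beside -0.01 and 167 of 355 over all transcripts. That list runs from JUND at 1.69 to CSF2 at -0.45, and it includes CDKN1A, a cell-cycle inhibitor, at -0.07 and VEGFA at 0.07. AP-1, CREB and ATF factors had a median of 0.23 with 8 of 10 above 0, the other transcription factors and coactivators 0.20 with 11 of 16, and MAP kinases 0.19 with 7 of 10. Calcineurin and NFAT components had a median of 0.14 with 9 of 12 above 0. Chemokine receptors had a median of -0.20 with 3 of 16 above 0, and TNF superfamily ligands -0.17 with 1 of 7. These 6 medians kept their sign with quantile normalization, but the sets did not share it. In set 1 the medians of the 4 positive lists were -0.10 for AP-1, CREB and ATF factors, -0.16 for the other transcription factors, -0.26 for MAP kinases and -0.08 for calcineurin and NFAT, and in set 4 they were 0.62, 0.67, 0.69 and 0.34. Both lists of transcription factors were bright. Their median levels were 0.82 and 1.00 in the HuR IP and 0.47 and 0.64 in the IgG1 IP, beside -0.02 and 0.03 over all transcripts. In set 4 the median ratio of all bright transcripts, described below, was 0.86. The part of brightness in the list medians was not tested. With a trend along the order of probes in the table removed, the medians of the 4 positive lists over the sets were 0.14, 0.07, 0.05 and 0.06. That of the chemokine receptors was then -0.03 and that of the TNF ligands -0.14. Families with like names, such as CC chemokines and TRAF adaptors, stand together in the table. Removing the trend can therefore draw the median of a family list towards 0 by construction. Centring on the 75th percentile instead moved the median of all transcripts to -0.18, and the medians of the lists moved with it. Those of the 4 positive lists came to 0.06, 0.03, 0.02 and -0.03, so that of calcineurin and NFAT changed sign.

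The highest and the lowest member show how wide each group was. PPP3R1, the regulatory subunit of calcineurin, led the calcineurin and NFAT list with ratios of -0.07, 0.39 and 2.22, while NFATC4 had a mean of -0.12. Of the MAP kinases, MAPK8, which encodes the kinase JNK1, had ratios of 0.93, -0.05 and 1.18 and MAP3K1 had a mean of -0.12. CXCR2, a neutrophil chemokine receptor, averaged 0.28 and CXCR5, a chemokine receptor of B cells, -0.39. Among TNF receptors TNFRSF1B averaged 0.51 ± 0.72 and TNFRSF8 -0.22 ± 0.41. Their list had a median of 0.15, or -0.11 with quantile normalization, so it had no settled direction. FASLG led the TNF ligands at 0.21, IL6ST the interleukin receptors at 0.45, IL19 the interleukins at 0.27 and JAK1 the JAK-STAT list at 0.28.

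**Figure D3:**
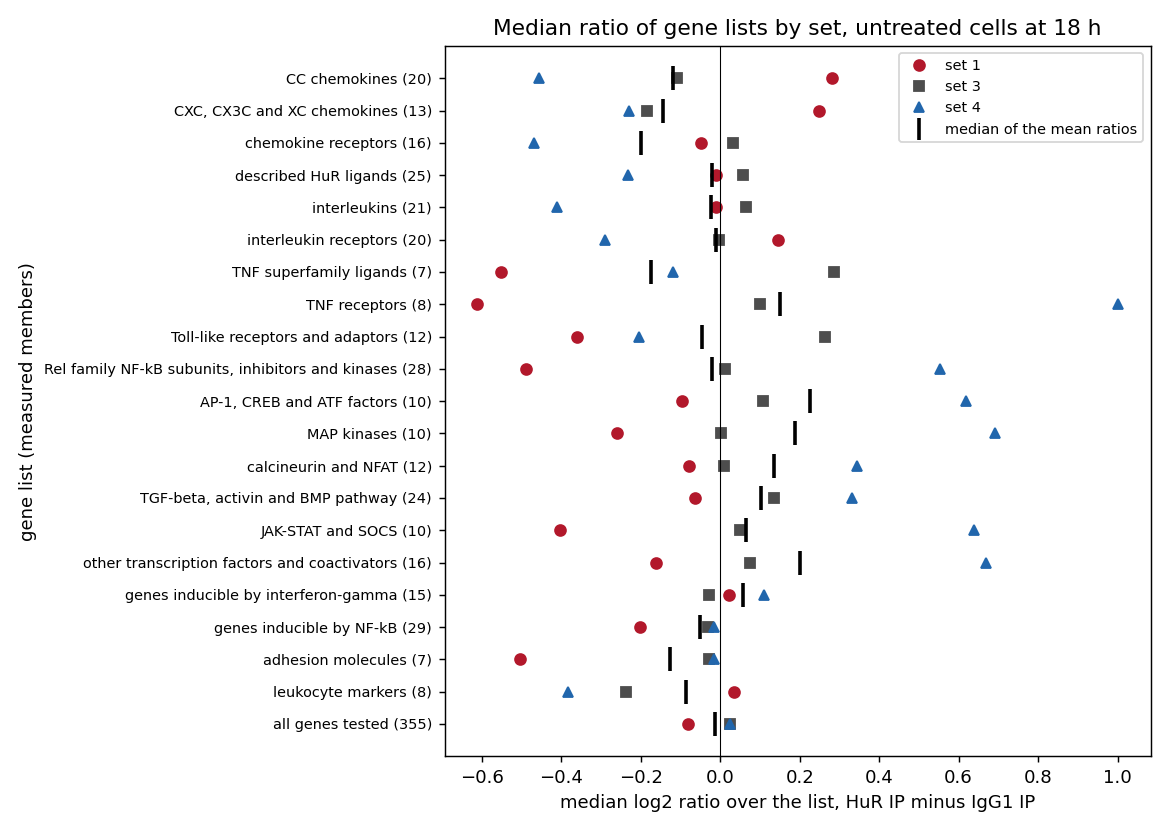
Median HuR to IgG1 ratio (log2) of 20 gene lists and of all transcripts tested, in each set (symbols) and for the mean over sets (black tick), with the number of measured members in parentheses. The sets disagree in sign for most lists; TNF receptors lie at -0.61 in set 1 and at 1.00 in set 4, and CC chemokines at 0.28 in set 1 and at -0.45 in set 4.

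The 3 sets did not rank the transcripts alike. Across the 355 transcripts, which are not independent replicates, the ratios of sets 1 and 3 correlated at -0.29, those of sets 1 and 4 at -0.11 and those of sets 3 and 4 at 0.04. Set 3 had a narrow spread of ratios, with an SD over transcripts of 0.26 and no ratio beyond 1 log2 unit. In set 1 the SD was 0.62, with 4 ratios above 1 and 25 below -1, and in set 4 it was 0.72, with 60 above 1 and 3 below -1. Levels told set 1 apart as well: across transcripts its arrays correlated with those of sets 3 and 4 at 0.29 to 0.42, while the arrays of sets 3 and 4 correlated with each other at 0.82 to 0.93.

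The many high ratios of set 4 went with the reach of 1 array. On the HuR array of set 4 the brightest probe was 199 times as bright as the dimmest, against 24.9 to 64.4 times on the other 5 arrays. There were 97 transcripts more than 1 log2 unit above the median on that array and 31 to 49 on the others. The set 4 ratio also followed brightness. It correlated at 0.63 across transcripts with the mean level over the 18 arrays of the other conditions, compared with -0.16 in set 1 and 0.05 in set 3. For the 136 transcripts with a mean level of at least 0.3 over all 24 arrays the median ratio of set 4 was 0.86, and for the 219 others it was -0.25. The 136 include all 10 transcripts without overlap above IgG1, JUND, ATF2, CCL2, MAX and SP3 among them. The part of the wider range of this array in the set 4 ratios of these 10 was not tested. With quantile normalization, which gives all arrays the same range, their mean ratios were above 0. The groups of JUND, CCL2, SP3, LTB4R and SMAD5 then overlapped.

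In set 1 the ratio ran with the order of the probes in the deposited table, which is close to alphabetical. The median ratio of set 1 was 0.17 in the first block of 16 consecutive probes, -0.86 in block 22 and -1.28 in block 23, while that of set 3 was 0.08, 0.29 and 0.40 in the same blocks, and that of set 4 was -0.26, 0.84 and 0.48. Spearman correlations of the ratio with the probe number were -0.54, 0.25 and 0.42 for sets 1, 3 and 4. The late blocks were high on the IgG1 array of set 1 rather than low on its HuR array: in block 23 the median level was -0.04 on the HuR array and 1.38 on the IgG1 array. Place within a block mattered too. At place 1 of 16 the median ratio was -0.66 in set 1 and 0.40 in set 3, and at place 10 it was 0.44 in set 1 and -0.11 in set 3. The sources used here do not give the layout of the membrane, so position on the membrane and gene family cannot be told apart.

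**Figure D4:**
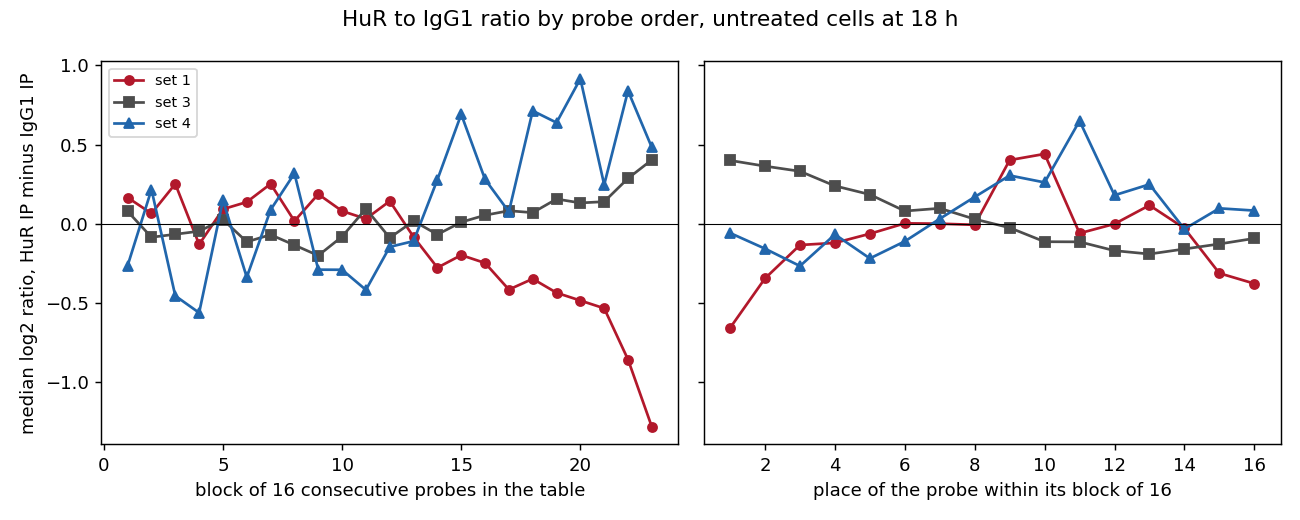
Median HuR to IgG1 ratio (log2) of each set over consecutive blocks of 16 probes in table order (left) and over the place of a probe within its block (right). Set 1 falls to -1.28 in the last block while sets 3 and 4 stand at 0.40 and 0.48 there, and sets 1 and 3 differ most at the first place of a block.

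The transcripts with the widest range between sets all stood in blocks 22 and 23. TRAF3, TRAF4, TRAF5 and TRAF6, adaptors that carry signals of TNF and Toll-like receptors, had set 1 ratios of -2.53, -2.55, -2.41 and -1.69. Their set 4 ratios were 0.94, 1.08, 0.84 and 1.40, and those of set 3 lay between -0.06 and 0.21. TRAF4, for example, had levels of -0.06, 0.67 and 2.02 on the HuR arrays and 2.49, 0.45 and 0.94 on the IgG1 arrays. The chemokine XCL2 had ratios of -2.62, 0.48 and 0.28 and PCGF2, a Polycomb protein, -1.99, 0.40 and 1.30. The mean ratios of these 6 transcripts lay between -0.62 and -0.09.

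An additive effect of block and place was then removed from every array by median polish, a step added after this pattern was seen. The correlations of set ratios became 0.10 for sets 1 and 3, 0.03 for sets 1 and 4 and 0.13 for sets 3 and 4, and the SDs became 0.46, 0.15 and 0.65. Now 53 transcripts (14.9%) had 3 ratios above 0 and 42 (11.8%) had 3 below, 16 and 13 of which were in the earlier counts. ATF2 had ratios of 1.74, 0.56 and 1.62, with a mean of 1.31 (limma unadjusted p = 0.0366), and JUND 2.31, 0.26 and 2.44, with a mean of 1.67. LTA came to -0.28, -0.31 and -0.30. Even patterns were lost for SOCS4 and LEP: SOCS4 had 0.51, 0.22 and -0.47, with a mean of 0.09, and LEP had 0.07, -0.06 and -0.009, with a mean of -0.0026. CSF1 no longer had 3 ratios below 0 either. The mean was 1.28 for CCL2, 0.91 for SP3, 0.75 for TGIF1, 0.66 for MAX, 0.61 for RUNX1 and 0.59 for BMPR2. No transcript passed (lowest adjusted p = 0.996, 1 transcript at an unadjusted p under 0.05), and with the set as a block in the 6 arrays alone the lowest adjusted p was 0.838, so that JUND no longer passed. The 10 transcripts without overlap above IgG1 now included 7 of the earlier 10, without CCL2, LTB4R and TGIF1 and with CD28, FGF2 and IL10RB.

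The same contrast was then set against the 3 other conditions, whose precipitates were hybridised to arrays of their own. The ratio at 18 h without cytokines was compared with that at 3 h, with that at 18 h with TNFα and IFNγ, and with the mean of all 3 conditions. In each comparison 0 of 355 transcripts (0%) passed (limma, lowest adjusted p = 0.994 to 0.999), and 0 had an unadjusted p under 0.05. With the set as a block these comparisons gave 0, 16 and 2 transcripts at an unadjusted p under 0.05, and 0 passed. JUND had ratios of 3.62, 0.43 and 0.99 in untreated cells at 3 h, 2.96, -0.34 and 0.73 in stimulated cells at 3 h, and 5.48, -0.87 and 1.43 in stimulated cells at 18 h. Set 1 gave the highest JUND ratio and set 3 the lowest in all 4 conditions. The JUND ratio at 18 h without cytokines minus the mean of the other conditions was 0.09 ± 1.10 (SE), an interval wide enough to hold large differences either way.

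ATF2 had a mean ratio of 1.27 at 18 h without cytokines, 1.01 at 3 h without them, 0.33 at 3 h with them and 1.44 at 18 h with them. CCL2 had 1.10, 1.48, 1.21 and 2.17 in the same conditions, and its highest single ratio was 5.85, in set 1 of stimulated cells at 18 h. In the 9 pairs of arrays of the other conditions, which the count of non-overlapping arrays did not use, the ratio was above 0 in 8 for CCL2 and in 7 for JUND, ATF2, MAX, SP3, TGIF1, RUNX1 and BMPR2. These pairs carry the same 3 set numbers in each condition, so they are not 9 independent replicates. For JUND, ATF2, MAX, SP3, TGIF1 and BMPR2 the pairs below 0 were those of set 3 in stimulated cells at 3 h and 18 h. Of all 355 transcripts 11.8% had 7 or more pairs above 0, and the median was 4. LTB4R had 6 and SMAD5 had 4. The set 4 ratio of SP3 was 2.08 at 18 h without cytokines and between 0.39 and 0.93 in the other conditions, where its set 3 ratio was 0.20, -0.63 and -1.64. CD86 and LTA were above 0 in 2 of those 9 pairs each, and 16.3% of all transcripts had 2 or fewer.

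**Figure D5:**
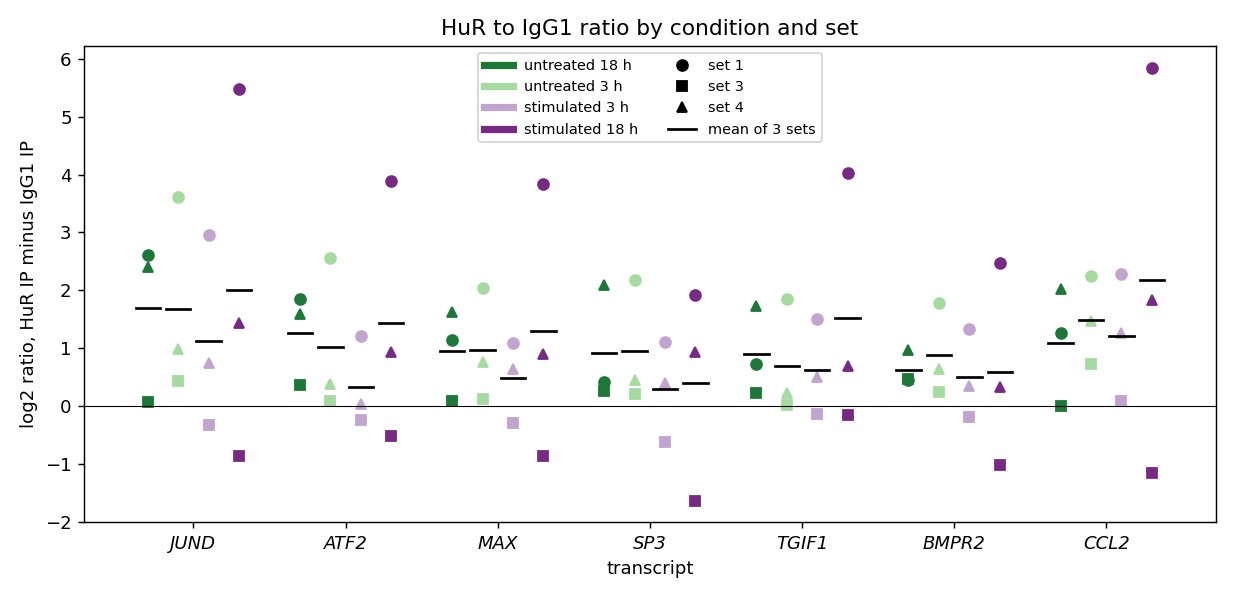
HuR to IgG1 ratio (log2) of 7 transcripts in the 4 conditions, with untreated cells at 18 h first in each group of columns; symbols are sets and black bars are means of 3 sets. Set 1 is highest and set 3 lowest for JUND and ATF2 in every condition, and the sets spread widest in stimulated cells at 18 h.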

How the data were processed

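Intensity values were deposited as whole numbers, 1 per probe and array, in a table that the authors call non-normalized; per the labels, 33P-labelled cDNA was hybridised to membranes. Image analysis, background treatment and the factor per array (0.542 to 3.64) of a second deposited table are not given in these sources. Of 384 probes 355 had values and were used; 342 were named by accession through GRCh38.p14 RefSeq and 13 keep the symbol in the table. Levels were fitted for all 24 arrays in 8 groups with limma 3.58.1 in R 4.3.3 (lmFit, eBayes), with Benjamini-Hochberg adjustment over 355 transcripts. The fit was run on simulated data with independent noise on each array. Those data held no shared deviation of a set and no trend in table order, so they check the computation only. Genes were named by a rule: passing genes, the most even set ratios (8 each way), the smallest p (5 each way), the 6 widest ranges between sets, 14 transcripts of interest, and the extremes of each list. Others, such as RUNX1, MYC and CEBPB, were named after their values were seen. Members, lists and tests were chosen with earlier results of these data known. Same-numbered arrays deviated together (correlations of 0.62, 0.46 and 0.51 for sets 1, 3 and 4) and were taken as pairs. The HuR array of set 3 also correlated with the IgG1 array of set 4, at 0.32. What same-numbered arrays share was not tested. The block over 24 arrays changed no call. Normalization, background, pseudocount, brightness, weights, table order and left-out arrays were varied. P-values of the main fit weigh a ratio against the scatter of arrays within the 8 groups, and the number of arrays limits the precision.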

Additional observations from a re-analysis of the deposited data

How the results depend on the processing

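The count of 0 passing transcripts held under every alternative but 1: with only the 6 arrays and the set as a replicate block, 1 transcript passed (JUND, log2 ratio 1.69). With the replicate block over 24 arrays the count was 0. Leaving out a set or an array also gave 0 to 0. Transcripts with all HuR arrays above all IgG1 arrays numbered 0 in the second deposited table, which is not centred and shifts the median transcript by -0.36. With quantile normalization they numbered 10, of which 5 were shared, and with the 75th percentile 7. They numbered 29 to 63 without a set, since 2 arrays against 2 separate more easily. Those below numbered 7 in the second table, 1 with a pseudocount of 1000, 0 among bright probes, 5 with the table-order trend removed and 20 to 41 without a set. The difference from the other conditions gave 0 passing transcripts in every setting run. The ratio without cytokines minus that with them at 18 h nevertheless depended on centring. In the second table its median was -1.99, and 142 transcripts had an unadjusted p under 0.05, 0 of them higher (limma, lowest adjusted p = 0.117). Without set 1, in centred values, 26 had an unadjusted p under 0.05, 24 of them higher (limma). The cause of these shifts was not tested. Of the 60 named transcripts, 30 kept their direction in every alternative and 43 in every alternative but left-out arrays. In the second table these came to lie below 0: SOCS4 -0.0746, LTB4R -0.049, CXCL2 -0.18, CXCL8 -0.22, IL6 -0.24, ICAM1 -0.012, CXCR2 -0.073, IL19 -0.080, FASLG -0.14, JAK1 -0.0708 and CD28 -0.21. Centring on the 75th percentile, which moves the median transcript to -0.18, gave CXCL2 -0.0023, CXCL8 -0.0475, IL6 -0.067 and CD28 -0.0329. Quantile normalization gave FASLG -0.048 and IRAK1 -0.22. Array weights gave CSF1 0.18, CXCL1 -0.0018, ICAM1 -0.0942, FASLG -0.17, IRAK1 -0.12 and TLR10 0.0142. The estimation of array weights gave convergence warnings in some fits. Normexp gave TNFRSF8 0.17, and removal of the table-order trend gave PCGF2 0.27, with or without the block. The cause of these turns was not tested. Without 1 set or array, these ratios changed sign: CD3G -1.01 to 0.0428, IL17RA -1.67 to 0.28, CSF1 -1.62 to 0.64, TRAF4 -1.17 to 0.65, TRAF3 -1.25 to 0.48, PCGF2 -0.79 to 0.85, TRAF5 -1.23 to 0.39 and XCL2 -1.51 to 0.78. So did TRAF6 -0.83 to 0.71, CCL5 -0.62 to 0.051, CXCL1 -0.10 to 0.66, CXCL2 -0.63 to 1.04, CXCL8 -0.0373 to 0.31, CXCL10 -0.41 to 0.13, TNF -0.62 to 0.47, ICAM1 -0.25 to 0.69 and FASLG -0.31 to 0.64. The others were TNFRSF1B -0.0367 to 1.03, TNFRSF8 -0.59 to 0.11, IRAK1 -0.24 to 0.93, TLR10 -0.75 to 0.0259, MAP3K1 -0.25 to 0.0507, JAK1 -0.10 to 0.59, SOCS1 -0.91 to 0.13 and CD28 -0.14 to 0.52.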

Other observations

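With the table-order trend removed and only the 6 arrays fitted with the set as a block, 9 transcripts had an unadjusted p under 0.05, 7 of them with a positive ratio. Those with the lowest p were ATF2 (unadjusted p = 0.00753), TGIF1, JUND, SP3 and MAX, and TGFBR1, the type I receptor for TGF-β, had a ratio of 0.43. TGFB3, a TGF-β ligand, had -0.47. None of the 9 passed (limma, adjusted p = 0.838), and these names were picked after their values were seen. Before the trend was removed TGFBR1 had ratios of -0.21, 0.29 and 1.62 in sets 1, 3 and 4. CEBPB, a factor that drives acute phase genes, had -0.10, 0.36 and 1.25, and its level on the arrays of set 1 was 0.02 in the HuR IP and 0.13 in the IgG1 IP, far below its levels of 1.78 and 3.20 on the HuR arrays and 1.42 and 1.95 on the IgG1 arrays of sets 3 and 4.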
